A study of Saccharomyces cerevisiae BY4741 with 4 samples.

Results

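Karyopherins are the receptors that carry proteins and RNA through the nuclear pore. The genes described here are 10 of them in budding yeast, named one by one by their systematic identifiers: the export receptors CSE1, MSN5 and CRM1, and the import receptors KAP120, MTR10, KAP123, KAP95, SRP1, PSE1 and KAP104. All 10 had a level of histone H3 trimethylated on lysine 4 (H3K4me3) in both strains, out of 5038 genes for which both levels were present. H3K4me3 marks the first part of transcribed genes and is placed by COMPASS, a complex in which Spp1 is a PHD finger subunit. The tested strain was a BY4741 derivative that carries KanMX6, which gives drug resistance, in place of SPP1. It was set against BY4741 wild type, a MATa strain that carries his3Δ1, leu2Δ0 and ura3Δ0. The labels list only the SPP1 replacement for the deletion strain, and they do not say whether it is a single clone. Both were grown in rich glucose medium to log phase. Nucleosomes released by micrococcal nuclease were precipitated with an antibody against the mark, after fission yeast cells had been added as a spike-in.

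Most karyopherins belong to the importin beta family, whose members are long solenoids of HEAT repeats. They bind the small GTPase Ran and the FG repeats of the nuclear pore. Ran-GTP, which is abundant in the nucleus, releases cargo from import receptors and holds cargo on export receptors, so the direction of travel follows from where Ran is charged. Srp1, importin alpha, is built differently: it is an adaptor of armadillo repeats that reads the classical nuclear localisation signal and is itself carried by Kap95, importin beta.

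Each strain had 1 H3K4me3 library, and the values below therefore carry no replicate error and no p-value. The labels give 4 libraries, of which the wild-type input and an spp1 library titled only as a knockout were not analysed here. Levels are the authors' normalised values per gene, on a linear scale, and the read depth behind them is unknown. SPP1 itself had a level of 0.0982 in the deletion strain and 1.89 in wild type. Over all genes the median level was 0.494 in the deletion strain and 2.01 in wild type, a median log2 ratio of -1.93. Dividing each library by its own total adds 1.76 to every log2 ratio, which brings the median of all genes to -0.17. Levels relative to wild type therefore rest on the authors' scaling between libraries, whereas the order of genes within the pair of libraries does not. Levels depended at most weakly on gene length. Across 4938 annotated genes, which are not independent, the Spearman correlation with length was -0.00042 in the deletion strain and 0.12 in wild type. For the log2 ratio it was -0.11. Levels of different genes are compared on that basis, although the averaged part of each gene was not given in the sources used here.

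All 10 karyopherin genes were well marked in wild type, and they differed from one another mainly in how much of the mark was present in the deletion strain. In the deletion strain their levels ran from 0.406 for CSE1 to 1.05 for KAP104, a 2.59-fold range. In wild type they ran only from 2.04 for SRP1 to 2.54 for MSN5, a 1.25-fold range, and all 10 reached the median of all genes, as 50.0% of all genes did. The standard deviation of the log2 level over the 10 genes was 0.40 in the deletion strain and 0.10 in wild type. Over all genes it was 0.78 in the deletion strain and 0.59 in wild type. Among the 2166 genes whose wild-type level lay within the range of the 10, a choice that itself fixes a narrow wild-type spread, the deletion-strain value was 0.54.

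**Figure D1:**
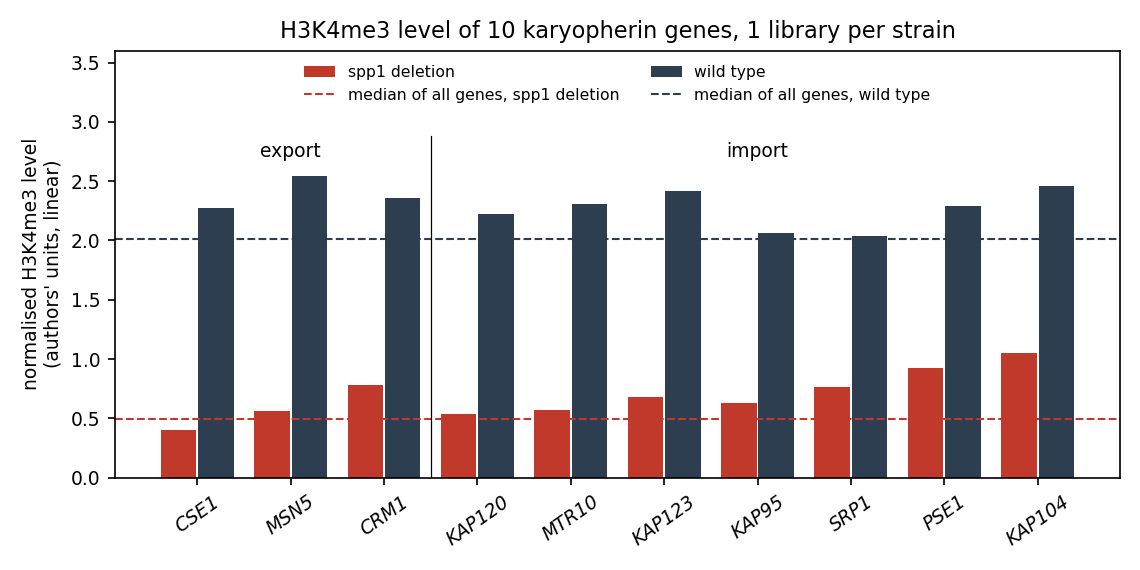
Normalised H3K4me3 level (linear scale, authors' units) of each karyopherin gene in the deletion strain (red bars) and in wild type (dark bars), 1 library each, with dashed lines at the medians of all 5038 genes. Deletion-strain bars run from 0.406 for CSE1 to 1.05 for KAP104, while wild-type bars lie between 2.04 and 2.54.

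As deposited, all 10 genes were below 50% of wild type in the deletion strain, against 93.8% of all genes, so that count sits at the background. After scaling each library to its own sum, 5 of the 10 were higher than wild type (CRM1, KAP95, SRP1, PSE1 and KAP104), against 38.4% of all genes. Below 25% of wild type as deposited lay 4 members (CSE1, MSN5, KAP120 and MTR10), against 44.6% of all genes. The same 4 genes lay below the median log2 ratio of all genes, against 50.0% of all genes by definition. Of the 2519 genes that reached the wild-type median, 838 lay below 25% of wild type and 984 below the all-gene median. After scaling to library sums, 1206 of them were higher than wild type. The median log2 ratio of the 10 was -1.78, or 29.2% of wild type. That is 0.15 above the median of all genes, and close to the -1.78 of the 2519 genes that reached the wild-type median, to which all 10 belong. As a set, then, the karyopherin genes had a median like that of other well-marked genes. Their log2 ratios also varied no more than those of other genes, with a standard deviation of 0.41. It was 0.52 for the 2166 genes within their range of wild-type level and 0.55 for all genes. The log2 ratios of the 10 spanned 1.26 from CSE1 to KAP104. Inside the middle 50% of all genes (-2.27 to -1.55) lay 6 of the 10, with 3 above it and 1 below it.

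**Figure D2:**
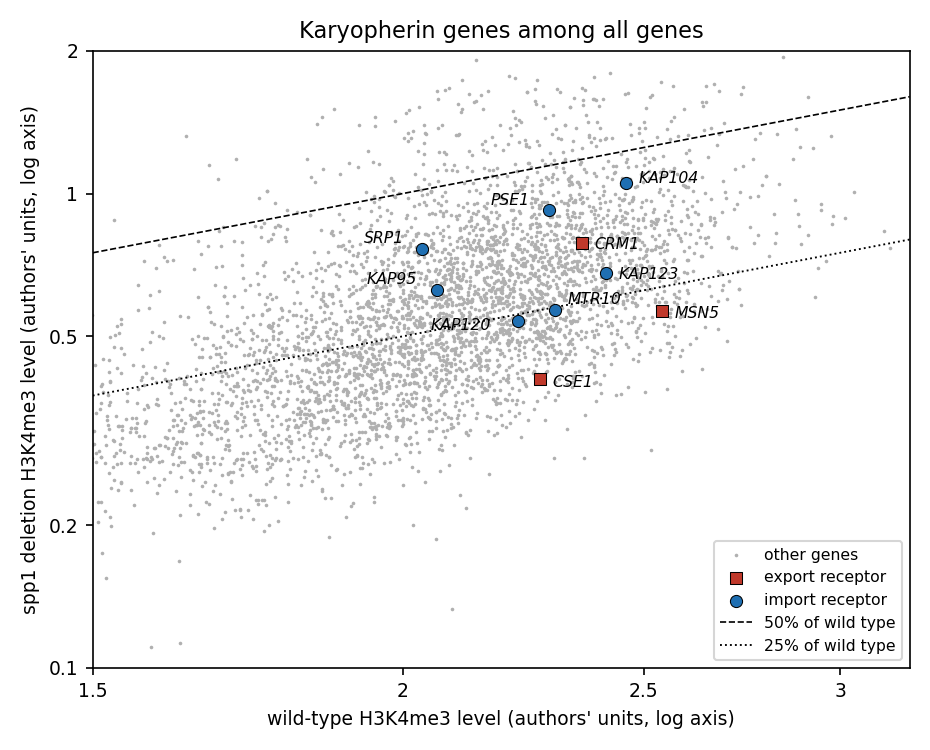
H3K4me3 level in the deletion strain (y, log axis) against wild type (x, log axis) for karyopherin genes (squares, export; circles, import) and other genes (grey), with lines at 50% and 25% of wild type as deposited. The axes are cut to show 4100 of 5038 genes. The 10 genes spread from CSE1, at 17.9% of wild type, to KAP104, at 42.7%, within a narrow band of wild-type levels.

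CSE1 and MSN5, both export receptors, had the 2 lowest ratios of the set. CSE1 (YGL238W, chromosome VII, 49552 to 52434 on the R64 assembly, forward strand) encodes the receptor that returns Srp1 to the cytoplasm after import. Its level was 0.406 in the deletion strain and 2.27 in wild type, 17.9% of wild type and a log2 ratio of -2.48. In the deletion strain 36.2% of genes lay below CSE1, against 78.0% in wild type, and CSE1 was the only member below the deletion strain's median. MSN5 (YDR335W, chromosome IV, 1141168 to 1144842, forward) encodes the exporter of phosphorylated proteins such as Pho4, which also imports replication protein A. It had the highest wild-type level of the 10, with levels of 0.564 in the deletion strain and 2.54 in wild type, 22.2% and a log2 ratio of -2.17. The drop in level, deletion strain minus wild type, was the largest of the 10 for MSN5, at -1.98, against -1.86 for CSE1 and a median of -1.43 over all genes. Of 5 equal classes of wild-type level, the highest, which holds MSN5, had a median drop of -1.69. The next, which holds CSE1, had -1.57. In log2 ratio MSN5 differed from the median of its class by -0.47, and CSE1 by -0.67.

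CRM1 had a higher ratio than the other export receptors. It encodes exportin 1, which recognises leucine-rich export signals and takes part in export of the large pre-ribosomal subunit (YGR218W, chromosome VII, 932541 to 935795, forward). The level of CRM1 was 0.786 in the deletion strain and 2.36 in wild type, 33.3% of wild type and a log2 ratio of -1.59. Its ratio was above that of 72.8% of genes, and its deletion-strain level was 1.93 times that of CSE1, although the wild-type levels were alike.

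Among the import receptors, the 2 parts of the classical importin were the least marked of the 10 genes in wild type. SRP1, the importin alpha gene (YNL189W, chromosome XIV, 284260 to 285888, forward), had levels of 0.762 in the deletion strain and 2.04 in wild type, 37.4% and a log2 ratio of -1.42. KAP95, the importin beta gene (YLR347C, chromosome XII, 823828 to 826413, reverse), had levels of 0.626 in the deletion strain and 2.06 in wild type, 30.3% and a log2 ratio of -1.72. Both lay in the middle of 5 equal classes of wild-type level, and in the deletion strain 80.0% of genes lay below SRP1 and 67.4% below KAP95. The 3 genes of this import cycle thus ranged from 0.406 to 0.762 in the deletion strain and from 2.04 to 2.27 in wild type. By log2 ratio CSE1 lay lowest, KAP95 0.76 above it and SRP1 1.06 above it.

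KAP104 and PSE1 had the highest ratios of the set. KAP104 encodes the yeast transportin, which imports the mRNA-binding proteins Nab2 and Hrp1 (YBR017C, chromosome II, 270947 to 273703, reverse). Its level was 1.05 in the deletion strain and 2.46 in wild type, 42.7% and a log2 ratio of -1.23. PSE1, also called KAP121, encodes an importer of ribosomal proteins and transcription factors (YMR308C, chromosome XIII, 888952 to 892221, reverse). It had levels of 0.925 in the deletion strain and 2.29 in wild type, 40.4% and a log2 ratio of -1.31. The ratio was higher than in 88.5% of all genes for KAP104 and than in 86.1% for PSE1, and KAP104 lay 0.48 and PSE1 0.51 above the median of its own class among 5 equal classes of wild-type level. The level of KAP104 was 1.86 times that of MSN5 in the deletion strain and 0.97 times in wild type.

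The remaining import receptors lay near the median of all genes. KAP123, an abundant importer of ribosomal proteins and histones (YER110C, chromosome V, 378762 to 382103, reverse), had levels of 0.680 in the deletion strain and 2.42 in wild type, 28.2% and a log2 ratio of -1.83. MTR10 encodes the importer of the mRNA-binding protein Npl3 (YOR160W, chromosome XV, 633839 to 636757, forward), and had levels of 0.569 in the deletion strain and 2.30 in wild type, 24.7% and -2.02. KAP120, whose product imports the ribosome assembly factor Rpf1 (YPL125W, chromosome XVI, 313388 to 316486, forward), had levels of 0.538 in the deletion strain and 2.22 in wild type, 24.2% and -2.05. KAP120 and MTR10 lay just under 25% of wild type, and their log2 ratios differed from the all-gene median by -0.12 (KAP120) and -0.0930 (MTR10), against 0.0970 for KAP123. Without replicates, neighbours in this order as close as KAP120 and MTR10, or PSE1 and KAP104, cannot be put in an order beyond their error. PSE1 and KAP123, which share ribosomal protein cargo, differed by 0.52 in log2 ratio, with a PSE1 level of 1.36 times KAP123 in the deletion strain and 0.95 times in wild type.

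Import and export receptors were compared as the rule for the set asks. The export genes had a median log2 ratio of -2.17 (range -2.48 to -1.59; 22.2% of wild type) and the import genes one of -1.72 (range -2.05 to -1.23; 30.3%), a difference of -0.45. The classes overlapped: CRM1 lay inside the import range, and export was lower than import in 17 of the 21 pairings of an export with an import gene. Median levels were 0.564 for export and 0.680 for import genes in the deletion strain, and 2.36 for export and 2.29 for import genes in wild type. The export gene of a pairing had the lower level in 15 of 21 in the deletion strain, and the higher level in 15 of 21 in wild type. With 3 genes against 7, and genes that are not replicates of a class, no test was made. The difference depended on which karyopherins were counted. With the other 5 added, LOS1 as export and the rest as import, it was -0.05. Other placements of the 5 were not tried.

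Those 5 are KAP114, NMD5, KAP122 (also called PDR6) and SXM1, counted here as import genes, and LOS1, the tRNA exporter. Their median log2 ratio was -2.35, with 3 of the 5 below the all-gene median, and they divided into a low and a high set. KAP114, whose product imports the TATA-binding protein and histones, had a level of 0.338 in the deletion strain and 2.05 in wild type, 16.5% of wild type. NMD5, an importer of the kinase Hog1, lay at 18.4%, and KAP122, an importer of TFIIA, at 19.6%. SXM1 lay at 39.7% and LOS1 at 35.5%, so that LOS1 lay near CRM1 and not near CSE1 or MSN5. SXM1 and NMD5 are paralogues from the yeast genome duplication. In the deletion strain the level of SXM1 was 2.01 times that of NMD5 (0.880 for SXM1, 0.439 for NMD5), while their wild-type levels were close (2.21 for SXM1, 2.38 for NMD5), a difference of 1.11 in log2 ratio. Over all 15 karyopherin genes the median log2 ratio was -1.83, with 7 below and 8 above the all-gene median.

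**Figure D3:**
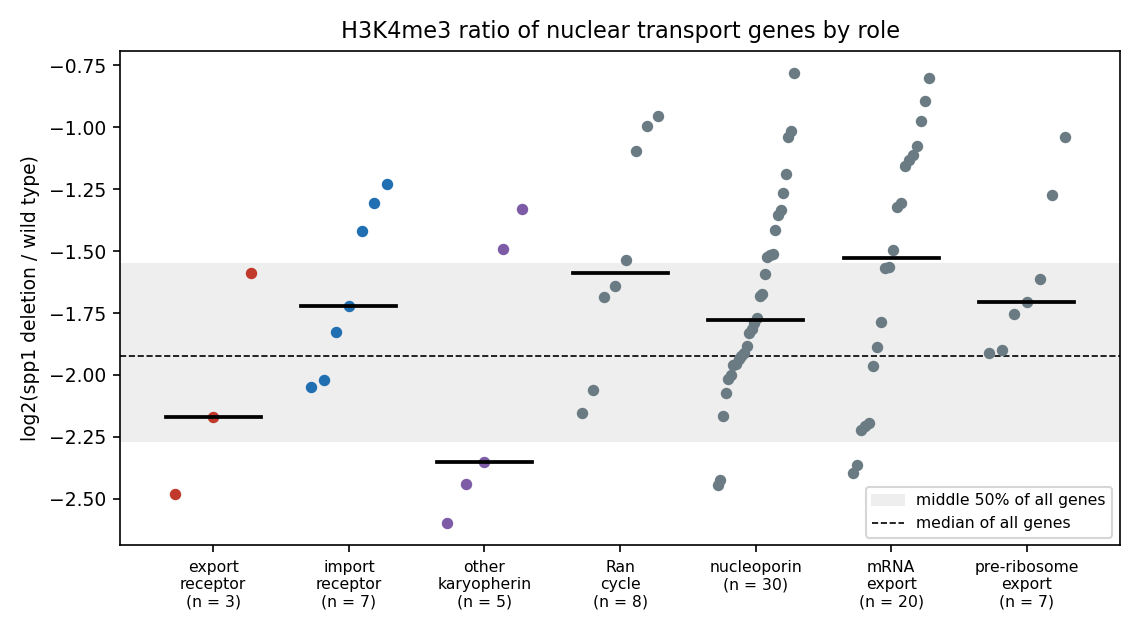
Log2 ratio of deletion strain to wild type, as deposited, for each gene of 7 nuclear transport lists (points, 1 gene each; bars, list medians), with the all-gene median (dashed) and the middle 50% of all genes (grey). Export and import receptors overlap, and the other karyopherins hold both low and high genes. Dividing each library by its own total moves every point up by 1.76.

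Other genes of nuclear transport give the setting. The Ran cycle genes had a median log2 ratio of -1.59 over the 8 with both levels, 6 above the all-gene median, since YRB2 had only a wild-type level. GSP1, which encodes Ran, had the highest ratio of that list, with levels of 1.12 in the deletion strain and 2.17 in wild type, 51.6% of wild type. Its paralogue GSP2, named for that kinship after its value was seen, was little marked in wild type and lay at 24.0%, with levels of 0.201 in the deletion strain and 0.838 in wild type. SRM1, the Ran exchange factor gene, was the most marked of the list in wild type (0.820 in the deletion strain, 2.56 in wild type; 32.0%), and the Ran-binding protein gene YRB30 the lowest ratio, at 22.5%.

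The nucleoporin genes, 30 of 33 with both levels, had a median log2 ratio of -1.78, the same as the 10 karyopherin genes to 2 decimals, with 21 above and 9 below the all-gene median. MLP2 and NUP159, which like YRB2 lie on chromosome IX, had only a wild-type level. NUP100 was not among the 5219 genes that the authors listed. Their ratios ran from POM33, a membrane nucleoporin gene, at 18.4% to GLE1, an mRNA export factor at the pore, at 58.2%. GLE1 lies on the left arm of chromosome IV, where log2 ratios had a standard deviation of 1.06 over 212 genes, against 0.52 elsewhere. No karyopherin gene described here lies on that arm. GLE2, the RAE1 homologue, had the highest wild-type level (0.925 in the deletion strain, 2.95 in wild type; 31.4%). The mRNA export list had a median of -1.53 over 20 genes, 14 of them above the all-gene median, from YRA2 at 19.0% to NPL3 at 57.4%, with THP1, the most marked in wild type, at 27.0%. NPL3, the cargo of Mtr10, thus lay 1.22 above MTR10 in log2 ratio. The cargoes of Kap104, picked out for that role after the values were seen, lay on opposite sides of it, NAB2 at 53.8% and HRP1 at 19.4%. The 7 pre-ribosome export genes had a median of -1.71 and all lay above the all-gene median, from RRP12 at 26.6% to BUD20 at 48.6%. ARX1 had the highest wild-type level of these (1.12 in the deletion strain, 2.72 in wild type; 41.3%), and NMD3, the adaptor that brings the large subunit to Crm1, which was picked out for that role after its value was seen, lay at 30.6%.

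The choice of members did not use gene length, and the karyopherin genes are long: 9 of 10 fell in the longest of 5 equal length classes, with SRP1 (1629 bases) the exception and MSN5 (3675 bases) the longest. Genes of that class had a median log2 ratio of -1.99, slightly under the -1.83 of the shortest class, and 6 of the 10 lay above the median of their own length class. Against the median of their own class of wild-type level, 5 lay above and 5 below. None overlapped another annotated gene, against 2.01% of 4935 annotated protein-coding genes that did, and none had levels identical to those of another gene, against 1.97% of all genes, so both counts sit at the background.

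The ratios were also set beside those of adjacent genes. For each member the annotated protein-coding gene next to its start was taken, 186 to 1725 bases away. In 9 of 10 cases it points the same way as the karyopherin gene, against 48.0% of the 4327 genes with a measured neighbour of this kind, and only MTR10 has a divergent neighbour, the splicing gene SME1. The member had the higher log2 ratio in 5 cases and the lower in 5, with a median absolute difference of 0.60, against 0.46 over those 4327 genes and 0.47 over those of them with the same orientation as their neighbour. Whether the 10 genes differ from other genes in this was not tested. MTR10 and SME1, 272 bases apart, differed most, at 24.7% and 50.1% of wild type. KAP120 lay at 24.2% beside NAN1, a ribosome assembly gene at 42.7%, and MSN5 at 22.2% beside SWR1, a chromatin remodeller gene at 38.2%. In the other direction KAP95 lay at 30.3% beside the mitochondrial carrier gene DIC1 at 18.6%, KAP123 at 28.2% beside the cell cycle regulator gene SWI4 at 17.6%, and SRP1 at 37.4% beside YNL190W at 26.0%. Closer to their neighbours were 3 members. CRM1 and CCH1, a calcium channel gene, lay at 33.3% and 32.8%, PSE1 and the translation factor gene NIP1 at 40.4% and 47.1%, and CSE1 and DOC1, an anaphase-promoting complex gene, at 17.9% and 20.2%. KAP104 (42.7%) has the galactose gene GAL7 (35.6%) beside it, which was little marked in either strain, with levels of 0.180 in the deletion strain and 0.506 in wild type.

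**Figure D4:**
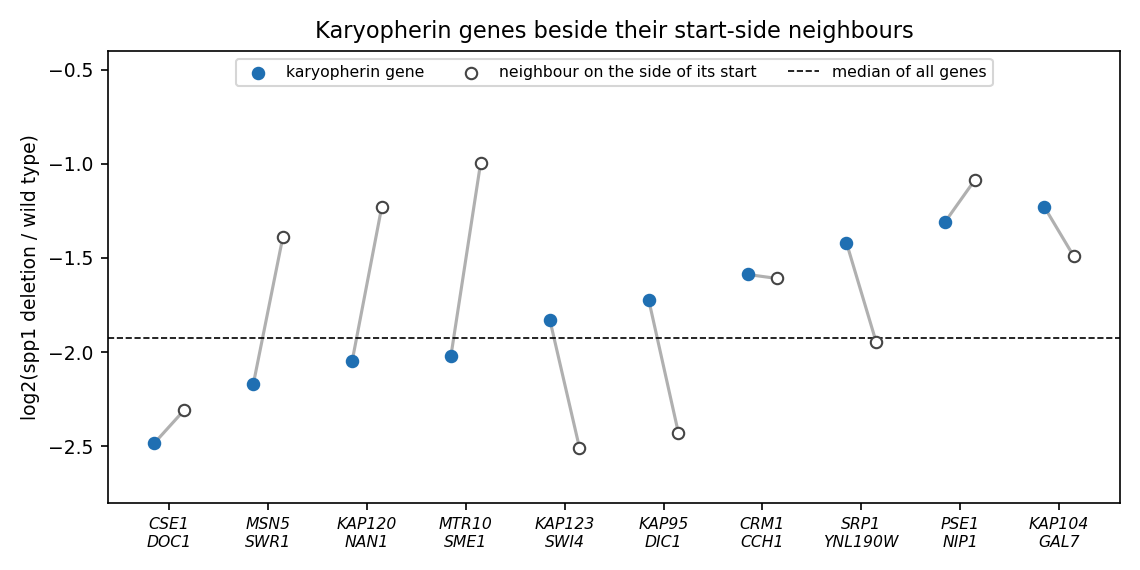
Log2 ratio of deletion strain to wild type, as deposited, for each karyopherin gene (filled) and the annotated protein-coding gene next to its start (open), ordered by the karyopherin gene's ratio, with the all-gene median dashed. The largest gap, 1.02, is that of MTR10 and SME1, and the smallest, 0.02, that of CRM1 and CCH1.

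CSE1 has a second karyopherin gene close by. KAP114 ends 1092 bases before CSE1 begins, with DOC1 between them, on chromosome VII from 45445 to 52434. All 3 genes had low ratios, at 16.5% for KAP114, 20.2% for DOC1 and 17.9% for CSE1, a stretch picked out after its values were seen. Of genes outside the set and outside the left arm of chromosome IV, those most like CSE1 by distance in log2 level over the 2 libraries were the condensin gene YCG1 (0.024) and the transcription factor gene PPR1 (0.026). Those most like KAP104 were EFT2 (0.0047), a translation elongation factor gene with a near-identical copy whose reads may be shared, and the exosome gene SKI6 (0.0083). With only 2 libraries such likeness is common: 64 genes lay within 0.1 of CSE1 and 59 within 0.1 of KAP104.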

How the data were processed

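The authors deposited a normalised H3K4me3 signal, 1 value per gene in each of 2 H3K4me3 libraries, per the file headers. By the series text, strains can be compared because of a fission yeast spike-in, per the labels' protocols added at 25% by volume at an optical density of 0.6. Bowtie2, SAMtools and bedtools were used with sacCer3 and ASM294v2, per the submitters' processing notes. How a gene's level was averaged, and whether input was divided out, were not given in the sources used here. Of 5219 genes, 181 had no level in the deletion strain, and 3 lines held no gene. Names were matched to the RefSeq table of the R64 assembly (5116 matches), and strand was read from the systematic name. Log2 ratios of deletion strain to wild type were taken with no pseudocount and no filter (Python 3.11.15, pandas 2.3.3). A run on simulated levels returned the ratios put in, which follows from the formula. It did not cover the ranks, the neighbours or the comparison of classes. With 1 library per strain no test was run. The 10 members and the lists were chosen with earlier results of these data known. Of 84 list names all matched an annotated gene. Genes named are the 10 members, the 5 other karyopherins, each member's start-side neighbour, the lowest and highest ratio and highest wild-type level of each other list, and the 2 genes most like the extreme members. GSP2, NAB2, HRP1 and NMD3 fall outside this rule and were chosen after their values were seen. Alternatives were a pseudocount (10% of the wild-type median level), scaling each library to its total, a floor at the wild-type median, background subtraction, exclusion of chromosome IV left, other class memberships and means.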

Additional observations from a re-analysis of the deposited data

How the results depend on the processing

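The order of the 10 karyopherin genes was the same with a pseudocount and with background (the 1st percentile of each library) subtracted. Scaling each library to its own sum adds the same amount to every log2 ratio, so it cannot change the order. Their median log2 ratio, -1.78, was -1.51 with a pseudocount (all genes -1.57) and -0.0152 after scaling to library sums (all genes -0.17). It was -1.89 with background subtracted (all genes -2.17, over 4948 genes in place of 5038) and -1.78 as a mean. The distance of the 10 from the median of all genes thus depended on the processing. Scaled to library sums, 5 genes lay above wild type: CRM1 by 0.17, KAP95 by 0.0380, SRP1 by 0.34, PSE1 by 0.45 and KAP104 by 0.53. The number of members below 25% of wild type, 4, was 1 with a pseudocount and 0 after scaling to library sums. The share of all genes below 25% was not counted under these settings, in which the all-gene median rose too. Those falls are therefore not a result about the members. The number below the all-gene median, 4, was 5 with a pseudocount. With a floor at the median wild-type level it was 5, counted against the median of the 2519 genes that passed the floor. It was 4 with background subtracted and without chromosome IV left, where no member lies. It was also 4 with identical levels counted once, a setting added after the data were seen. Scaling to library sums cannot change it, since the members and the median shift alike. The difference in median log2 ratio of export minus import, -0.45, was -0.39 with a pseudocount, -0.56 with background subtracted, -0.47 without KAP120 and MSN5, -0.40 without SRP1, -0.43 as a difference of means and -0.0513 with the other 5 karyopherins. The difference in wild-type level, 0.07, was 0.0192 without KAP120 and MSN5, 0.0647 without SRP1, 0.14 with the other karyopherins and 0.14 as a difference of means. With no replicates, any shift of 0.005 or more in a log2 ratio or a level was counted as a change. The move from 4 to 5 members below the median was not. The cause of these shifts was not tested. No paired analysis was possible because each strain had 1 library. Read depth is unknown, so what depth limits cannot be given.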
